A study of Homo sapiens with 15 samples.

Results

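The alpha-globin cluster of human chromosome 16, with the enhancers that lie upstream of it, was followed through 15 open-chromatin libraries of K562, a human erythroleukemia cell line. Its members were all deposited peaks that overlap the 140 kb from position 100000 to position 240000 of chromosome 16 on the hg19 build. These were 352 of 1070377 peaks, and they merged into 27 sites out of 120992 regions of the whole series. The interval holds the 6 genes HBZ, HBM, HBA2, HBA1, HBQ1 and NPRL3, together with POLR3K, SNRNP25, RHBDF1 and MPG on one side and the end of LUC7L on the other.

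Open chromatin was read by nuclease digestion of nuclei, and every library is represented by a single peak list. The 5 groups held 3 libraries each: dCas9-KRAB with gRNA CR4, dCas9-KRAB with gRNA CR10, dCas9 with CR4, dCas9 with CR10, and dCas9-KRAB without a gRNA. dCas9 is a Cas9 that binds DNA through its guide RNA (gRNA) without cutting, and KRAB is a repressor domain fused to it. Both gRNAs were aimed at HS2, an enhancer of the beta-globin cluster on chromosome 11, so that nothing in the alpha-globin interval was a target. Cells of every group had stably received lentivirus and were selected with puromycin, no group had dCas9 without a gRNA, and no group was untransduced. One label field named HS2 as target for the group without a gRNA too, and the groups here follow the titles and the design text. Transductions were made in triplicate, but no label ties a library to a separate culture, so the tests measure the spread between these libraries, which may be partly technical.

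The alpha-like genes are arranged along the chromosome in the order of their use in development. HBZ encodes the embryonic zeta chain, and HBA2 and HBA1 are near-identical copies that encode the alpha chain of fetal and adult hemoglobin. HBM and HBQ1 are alpha-like genes with little known contribution to hemoglobin. The erythroid enhancers of the cluster lie within and beside NPRL3, which encodes a subunit of the GATOR1 complex that restrains mTORC1 signalling. The strongest of them is known as HS-40 or MCS-R2, and its loss in people causes alpha-thalassemia. MCS-R1, MCS-R3 and MCS-R4 are the other conserved elements of the set, and HS-8 is a further hypersensitive site near HBZ.

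A RefSeq promoter sequence on GRCh38.p14 was found for 2 of the 6 member genes, NPRL3 and HBM. NPRL3 had an open site at its start in every list. No list had a summit in the HBM window, but a site in all 15 lists (214360 to 215247) reached into its edge. The NPRL3 promoter is chr16:138624-138923 on the minus strand and the HBM promoter is chr16:165728-166027 on the plus strand, positions that belong to another build than those of the peaks. Capitals mark matches to CCNCNCCC on either strand, a loose form of the CACC box that KLF-type factors bind.
NPRL3: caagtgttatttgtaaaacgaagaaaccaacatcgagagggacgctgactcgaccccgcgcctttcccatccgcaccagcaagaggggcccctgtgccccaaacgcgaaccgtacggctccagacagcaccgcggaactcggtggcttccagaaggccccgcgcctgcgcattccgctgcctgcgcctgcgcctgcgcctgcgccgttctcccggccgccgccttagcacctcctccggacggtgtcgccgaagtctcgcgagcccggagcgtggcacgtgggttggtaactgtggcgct
HBM: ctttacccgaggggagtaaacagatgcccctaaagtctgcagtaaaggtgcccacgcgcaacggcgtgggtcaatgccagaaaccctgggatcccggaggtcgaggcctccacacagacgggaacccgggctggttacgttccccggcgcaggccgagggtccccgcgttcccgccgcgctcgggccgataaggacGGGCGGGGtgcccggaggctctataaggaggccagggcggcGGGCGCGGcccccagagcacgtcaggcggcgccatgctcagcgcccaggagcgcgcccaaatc
Both sequences run from 250 bases before the start to 50 bases after it. The HBM sequence held 2 matches to CCNCNCCC, which 56.2% of 35116 promoters of this length also hold, and the NPRL3 sequence held 0. Neither sequence held AGATAA, the motif of the GATA factors found in 10.3% of promoters, TGAGTCA, the motif of NF-E2 and AP-1 found in 4.95%, CCACACCC (in 3.28%) or the CTCF core motif (in 1.77%), each searched on both strands. CCACACCC is contained in CCNCNCCC, and the absence of these letters says nothing of the factors. G and C made up 66.3% of the NPRL3 sequence and 69.3% of the HBM sequence.

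The cluster was open at the same places in nearly all libraries. Of the 27 sites, 19 had a peak in all 15 lists, and these included HS-40, the other conserved elements, HS-8 and the starts of NPRL3, HBZ, HBA2, HBA1 and HBQ1. The window of the HBM start and that of the pseudogene HBZP1 held a summit in 0 lists. A site in all 15 lists, at 214360 to 215247, had its median summit 12.1 kb downstream of the HBZ start. This summit lay between those windows, and the merged span of the site reached into both. Names come from recalled hg19 positions that were not checked against an annotation of that build, and other sites are called by their distance from the HBZ start.

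The enhancer sites sat on chromosome 16 of hg19 at 154885 to 155363 for MCS-R1, 163120 to 163899 for HS-40, 169913 to 170469 for MCS-R3, 192982 to 193575 for MCS-R4 and 194821 to 195260 for HS-8. The gene starts had sites at 188520 to 188898 for NPRL3, 202416 to 202934 for HBZ, 222398 to 223077 for HBA2, 226198 to 226792 for HBA1 and 230275 to 230714 for HBQ1. Summits were placed within short stretches. At HS-40 the 15 summits fell between 163516 and 163671, at MCS-R4 they spanned 26 bp, and at HBA2 they spanned 29 bp. The HS-40 peak was between 551 and 772 bp wide, with a median of 645 bp.

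The 8 other sites had a peak in some lists only, and they were weak by fold. A second site at the NPRL3 start (188028 to 188435) was in 14 lists and was missing from dCas9 with CR10 replicate 1, the shortest list. A second site at the start of MPG, a DNA repair glycosylase gene, was in 11 lists, and one at RHBDF1, which encodes an inactive rhomboid protease, was in 10. The site at the end of LUC7L was in 6 lists, those 15.4 kb upstream and 17.3 kb downstream of the HBZ start were in 2 each, and those 61.3 kb upstream and 6.7 kb downstream were in 1 each. Fold at these peaks, the authors' own ratio of summit to local background, ran from 2.37 to 4.33, and their summits held 18 to 119 fragments, the highest at the second MPG site. For the site 17.3 kb downstream both lists belonged to dCas9-KRAB without a gRNA. Between the 6 HS2-directed dCas9-KRAB libraries and the other 9, Fisher's exact test of presence (two-sided) gave p from 0.329 to 1, with 0 of the 8 sites under 0.05, against 0.571% of the 82104 regions found in some lists only. For 5 of the 8 sites, those in 1, 2 or 14 lists, this split cannot reach 0.05 whatever the arrangement, so the count rests on 3 sites. Once all lists were cut to an equal length of 53098 peaks by fold, 0 of the 15 kept any of the 8.

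The number of sites with a peak differed between lists, and its relation to list length was not tested. It was 23, 21 and 25 in dCas9-KRAB with CR4, 21, 21 and 22 in dCas9-KRAB with CR10, 22, 21 and 22 in dCas9 with CR4, 19, 24 and 24 in dCas9 with CR10, and 23, 24 and 20 without a gRNA. The lists held between 53147 and 94777 peaks. The shortest list, dCas9 with CR10 replicate 1, had the fewest sites. Yet dCas9 with CR4 replicate 3 had 22 sites with 86931 peaks, and dCas9 with CR10 replicate 2 had 24 with 67341. The sources used here do not give the total fragments per library. The erythroid marker windows at HS2, GATA1 and HBG2 had a peak in 15 lists each, while the window of ALB, a hepatocyte gene, had one in 0 lists and that of CD3E, a T cell gene, in 1 list with a summit pileup of 25 fragments.

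Strength was measured in 2 ways. The rank percentile places a site among the peaks of its own equal-length list by fold, with 100 for the strongest peak and 0 for none. The summit pileup is the whole number of fragments over the summit that the deposited fold and p-value imply. It is given as fragments, or as a normalised log2 pileup, which is log2(pileup + 1) less the median of that library over 38888 regions with a peak in every list.

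**Figure D1:**
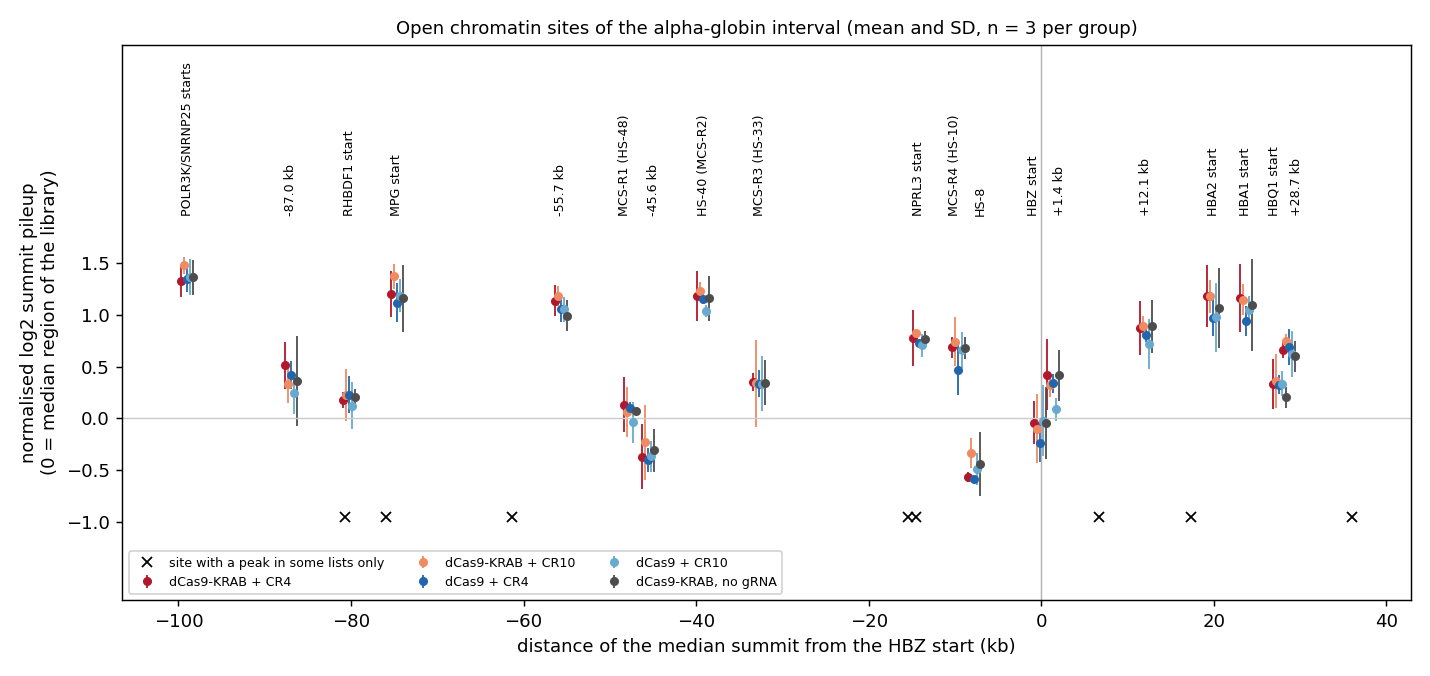
Normalised log2 summit pileup (vertical axis, 0 is the median region of the library) of the 19 sites in all 15 lists against the distance of the median summit from the HBZ start in kb. Points are means of 3 libraries with SD, the groups are shifted slightly sideways, and crosses at a fixed height mark the 8 sites in some lists only. HS-40 averaged 1.20 over the 6 HS2-directed dCas9-KRAB libraries and 1.12 over the other 9.

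HS-40 was among the strongest open sites of these cells, and it was so in all 5 groups. Its rank percentile was 94.3, 92.1 and 87.3 in dCas9-KRAB with CR4 and 90.9, 91.9 and 91.2 in dCas9-KRAB with CR10. It was 94.1, 87.6 and 92.0 in dCas9 with CR4, 86.8, 89.6 and 88.05 in dCas9 with CR10, and 93.1, 85.1 and 93.3 in dCas9-KRAB without a gRNA. The lowest library of all belonged to the group without a gRNA. The 6 HS2-directed libraries overlapped the other 9, but all 3 libraries of dCas9-KRAB with CR10 lay above all 3 of dCas9 with CR10. The summit held 181, 139 and 208 fragments in dCas9-KRAB with CR4, 134, 171 and 163 in dCas9-KRAB with CR10, 159, 166 and 216 in dCas9 with CR4, 88, 166 and 236 in dCas9 with CR10, and 160, 206 and 128 without a gRNA. Its mean rank was above that of 92.8% of the 62858 regions tested by rank. Its SD within groups was 0.154 on the normalised log2 pileup, against a median of 0.202 over all regions. In rank the SD was 3.09 points against a median of 9.66, on a scale that is compressed near its ceiling of 100.

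Bringing dCas9-KRAB to HS2 was not accompanied by a detectable difference at HS-40. Its percentile averaged 91.3 ± 2.29 (SD, n = 6) in the HS2-directed dCas9-KRAB libraries and 89.95 ± 3.26 (SD, n = 9) elsewhere. This difference, 1.34 points, gave p = 0.395 in a two-sided exact permutation test over 5005 splits. On the normalised log2 pileup the means were 1.20 ± 0.165 (SD, n = 6) and 1.12 ± 0.128 (SD, n = 9), a difference of 0.085 (exact permutation p = 0.277). The 95% interval of that difference in the limma fit ran from −0.10 to 0.27. The call depended on 1 library: without replicate 3 of dCas9-KRAB with CR4 the pileup difference was 0.145 (exact permutation p = 0.046).

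HS2, the site that both gRNAs address, gives the size of change seen at the target with the same measures. Its pooled difference in normalised log2 pileup was −0.71 (SE 0.12), with a limma adjusted p of 0.187 over all regions. HS-40 less HS2 in the same library averaged 1.26 ± 0.428 (SD, n = 6) in the HS2-directed dCas9-KRAB libraries and 0.47 ± 0.251 (SD, n = 9) in the others. The difference of 0.79 gave p = 0.0002 by two-sided exact permutation, the smallest that 5005 splits allow. In rank the same contrast was 49.6 ± 26.2 points (SD, n = 6) and 26.2 ± 12.7 points (SD, n = 9), a difference of 23.4 (exact permutation p = 0.0288). This contrast was chosen with the HS2 values known, so it is no independent evidence about HS2, and most of its size is the HS2 difference. In rank it missed 0.05 without any 1 of 6 libraries, the lowest value being 15.4 points without replicate 2 of dCas9-KRAB with CR10 (exact permutation p = 0.0904).

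**Figure D2:**
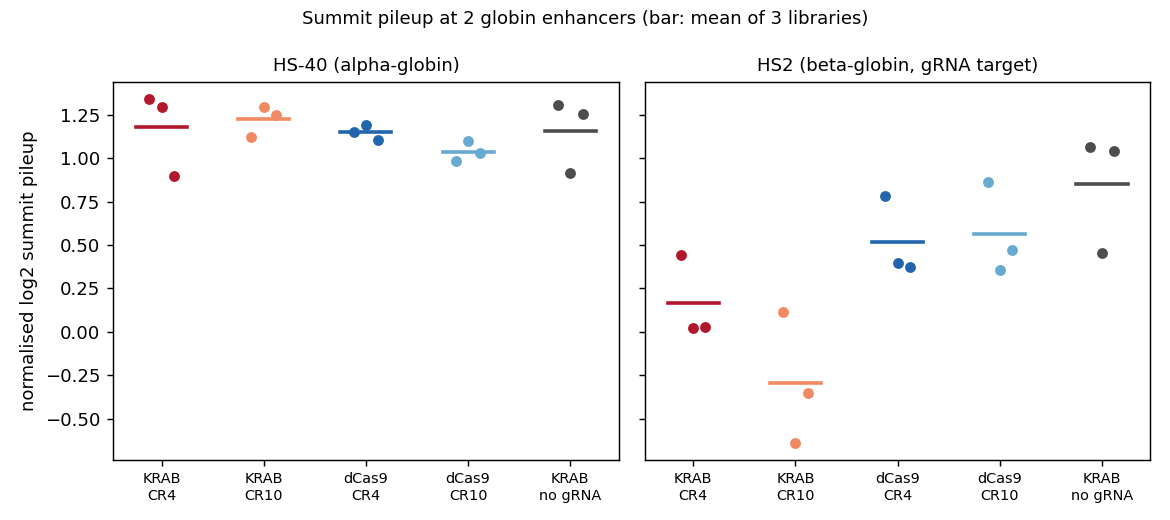
Normalised log2 summit pileup (vertical axis) of HS-40 on the left and of HS2 on the right, with 1 point per library and a bar for the mean of each group of 3. At HS-40 all libraries lie between 0.90 and 1.34, with dCas9-KRAB and CR10 above dCas9 and CR10, as dCas9 and CR4 also are. At HS2 the libraries with dCas9-KRAB and CR10 lie between −0.64 and 0.11 and those with dCas9-KRAB and CR4 between 0.025 and 0.44. Those with dCas9 and CR4 lie between 0.38 and 0.78, those with dCas9 and CR10 between 0.36 and 0.87, and those without a gRNA between 0.46 and 1.07.

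Group by group, no comparison at HS-40 passed the limma test. Against dCas9-KRAB without a gRNA, its normalised log2 pileup differed by 0.019 in dCas9-KRAB with CR4, by 0.064 in dCas9-KRAB with CR10, by −0.0093 in dCas9 with CR4 and by −0.12 in dCas9 with CR10, each with an SE of 0.14. dCas9-KRAB differed from dCas9 by 0.028 with CR4 and by 0.19 with CR10 (SE 0.14 each). Every one of these had a limma adjusted p of 1.00 over all regions. Under CR10 the groups with and without KRAB did not overlap at HS-40 on either measure, the lowest dCas9-KRAB library having a normalised log2 pileup of 1.12 and the highest dCas9 library 1.10. In that comparison the groups did not overlap at 1 of 19 sites by rank, against 4.67% of all regions, and at 2 of 19 on the pileup, against 4.54%. At HS-40 the separation was not particular to KRAB on the pileup. The libraries of dCas9 with CR4, at 1.103 to 1.194, also lay above those of dCas9 with CR10, at 0.984 to 1.098, though by rank these groups overlapped. The contrast of dCas9 with CR4 and with CR10 was not tested, and its share of all regions without overlap was not counted. An exact permutation test of 3 libraries against 3 cannot go below p = 0.1. The 4 comparisons with the group without a gRNA share those 3 libraries.

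The other conserved enhancer elements were weaker than HS-40 and did not pass a test either. MCS-R3 lay at percentiles 62.0, 73.2 and 72.7 in dCas9-KRAB with CR4, 57.6, 81.0 and 77.4 in dCas9-KRAB with CR10, 70.9, 68.2 and 74.1 in dCas9 with CR4, 59.6, 73.0 and 70.9 in dCas9 with CR10, and 76.1, 58.8 and 76.8 without a gRNA. MCS-R4 lay between 61.0 and 70.7 in the 6 HS2-directed dCas9-KRAB libraries and between 47.3 and 69.0 in the other 9. MCS-R1 lay between 43.8 and 74.8 in the 6 libraries and between 55.3 and 65.3 in the other 9. The 6 and the other 9 overlapped at all 3 elements. Among single groups, the MCS-R1 percentiles of dCas9 with CR4 (58.4 to 62.95) lay above those of dCas9 with CR10 (55.3 to 57.95). On the normalised log2 pileup both groups overlapped there. This comparison was not tested, and the share of all regions without overlap in it was not counted. The pooled differences in normalised log2 pileup were 0.0044 for MCS-R3 (95% interval −0.22 to 0.23), 0.11 for MCS-R4 (−0.08 to 0.30) and 0.052 for MCS-R1 (−0.16 to 0.26). HS-8 was the weakest of the 19 sites by pileup, with 38 to 77 fragments in the 6 libraries and 31 to 91 in the other 9, and its pooled difference was 0.057 (−0.17 to 0.29).

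At the NPRL3 start, which serves a housekeeping gene, the percentile was 78.2, 61.7 and 59.2 in dCas9-KRAB with CR4, 77.5, 65.0 and 71.0 in dCas9-KRAB with CR10, 77.0, 65.5 and 70.3 in dCas9 with CR4, 68.9, 65.3 and 58.2 in dCas9 with CR10, and 67.7, 70.9 and 67.8 without a gRNA. The groups overlapped. The pooled difference in normalised log2 pileup was 0.066 (95% interval −0.10 to 0.24).

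The HBZ start had the largest SD within groups of the gene starts, by a small margin on the pileup. The summit held 59, 56 and 123 fragments in dCas9-KRAB with CR4, 46, 83 and 61 in dCas9-KRAB with CR10, 53, 61 and 97 in dCas9 with CR4, 34, 76 and 144 in dCas9 with CR10, and 82, 96 and 43 without a gRNA. As a percentile it ran from 8.08 to 44.95 in the 6 HS2-directed dCas9-KRAB libraries and from 9.07 to 47.5 in the other 9. Its SD within groups, 0.292 on the normalised log2 scale, was larger than that of 85.6% of regions. HBA2 at 0.284 and HBA1 at 0.270 were close, above 83.6% and 79.9% of regions. The pooled difference was 0.030 (95% interval −0.24 to 0.30).

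The site 1.4 kb downstream of the HBZ start (203781 to 204771), chosen after its values were seen, was the 1 site past an unadjusted p of 0.05 in any comparison as fitted here. Its normalised log2 pileup was 0.73, 0.49 and 0.051 in dCas9-KRAB with CR4, 0.40, 0.19 and 0.38 in dCas9-KRAB with CR10, 0.41, 0.24 and 0.36 in dCas9 with CR4, −0.032, 0.17 and 0.12 in dCas9 with CR10, and 0.65, 0.16 and 0.43 without a gRNA. In dCas9 with CR10 against no gRNA the difference was −0.33 (SE 0.15), with an unadjusted limma p of 0.0437 and an adjusted p of 1.00, and the 2 groups overlapped. In that comparison 1.09% of all regions passed the same unadjusted threshold.

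**Figure D3:**
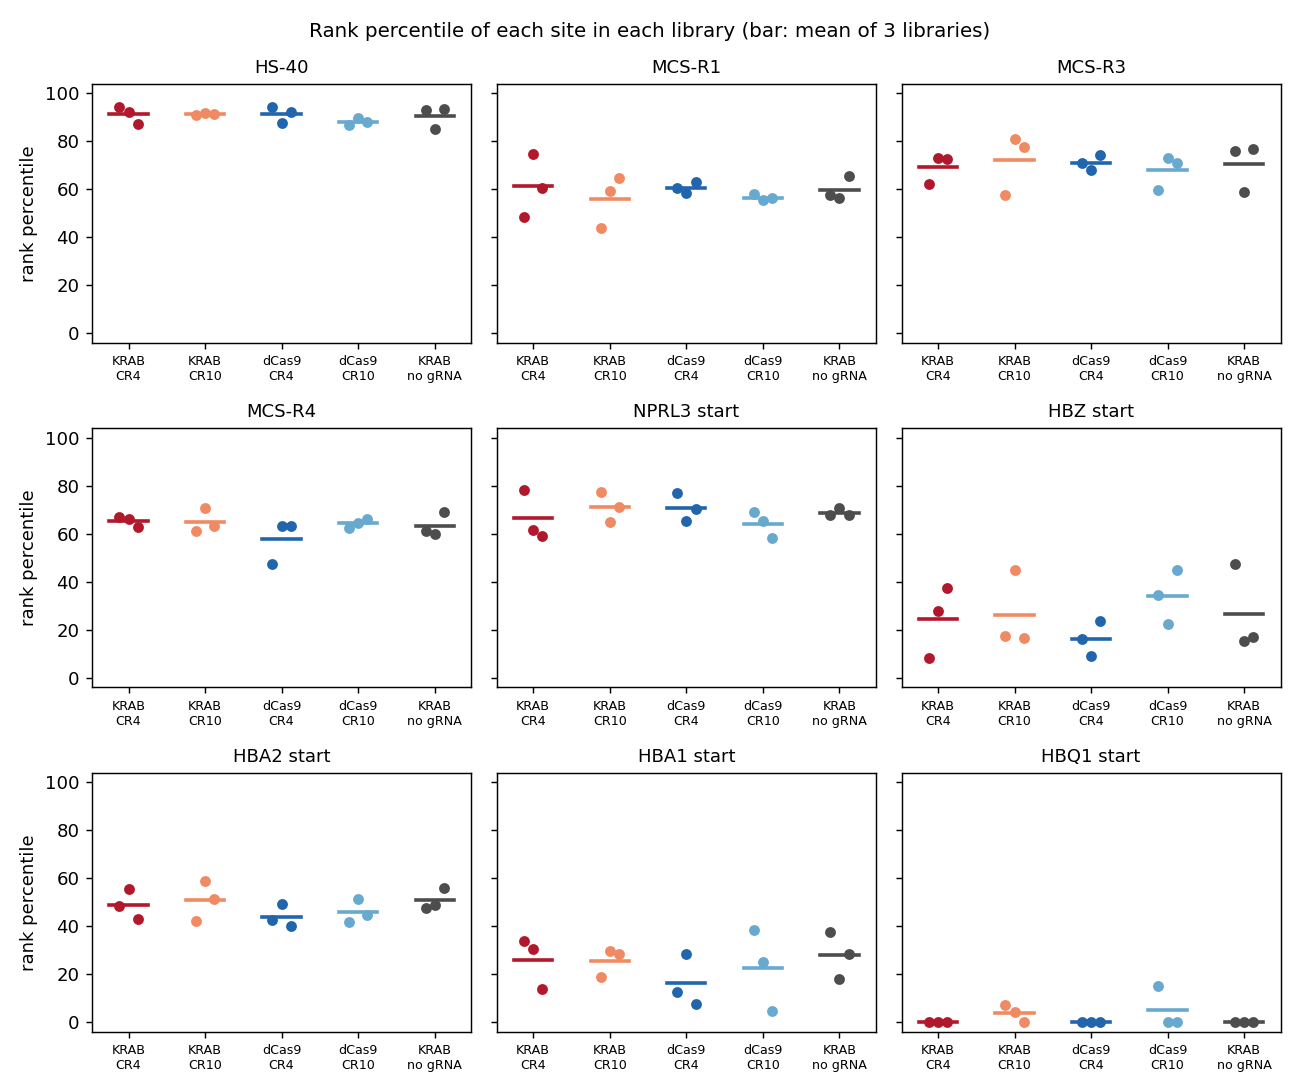
Rank percentile (vertical axis, 100 marks the top peak of a list and 0 no peak) of 9 enhancer and gene-start sites in each library, with groups along the horizontal axis and a bar for the mean of 3 libraries. HS-40 stays above 85 in every library, HBA1 lies below HBA2, and HBQ1 is at or near 0 in most libraries.

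The duplicated alpha genes differed from each other in every library in the local background that fold and p-value imply. No difference between their summits was detected. The HBA1 summit held 207, 117 and 208 fragments in dCas9-KRAB with CR4, 126, 173 and 145 in dCas9-KRAB with CR10, 146, 147 and 171 in dCas9 with CR4, 85, 177 and 232 in dCas9 with CR10, and 196, 198 and 94 without a gRNA. The HBA2 summit held 203, 124 and 210 fragments in dCas9-KRAB with CR4, 133, 178 and 143 in dCas9-KRAB with CR10, 160, 139 and 176 in dCas9 with CR4, 67, 183 and 245 in dCas9 with CR10, and 183, 203 and 93 without a gRNA. The ratio of HBA1 to HBA2 averaged 1.00 at the summit, with HBA1 higher in 6 of 15 libraries (two-sided exact sign-flip permutation test, p = 0.956). The local background was 1.28 times as high at HBA1, and higher there in 15 of 15 libraries (exact sign-flip permutation p = 6.1e-05, the smallest that 15 pairs allow).

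By fold, which sets the summit against this background, HBA1 ranked below HBA2. Its fold ran from 4.95 to 6.38, against 6.34 to 8.51 at HBA2, and its percentile was lower in all 15 libraries, by a mean of −24.4 points (SD 9.21). Neither gap passed a test between the 6 HS2-directed dCas9-KRAB libraries and the other 9. The log2 ratio of backgrounds was 0.34 and 0.38 (two-sided exact permutation p = 0.258), and the rank difference was −24.1 and −24.6 points (exact permutation p = 0.936). Fragments from stretches that both copies share could be assigned to either gene, and the sources used here do not say how the authors placed such fragments. The comparisons of summits, backgrounds and fold between the copies are therefore uncertain. This contrast was chosen after its values were seen.

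**Figure D4:**
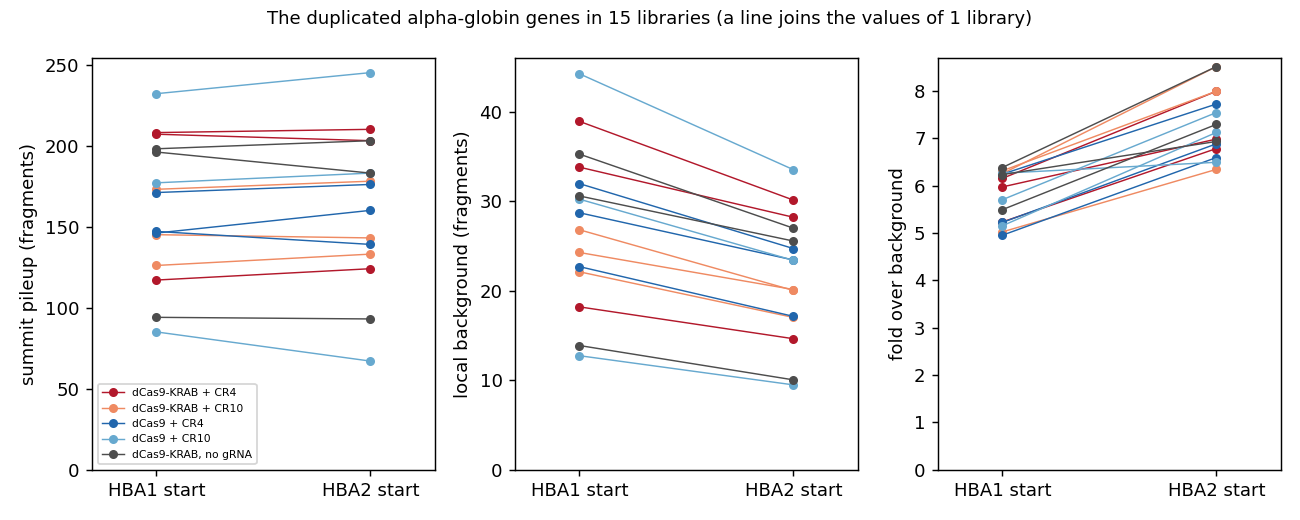
Summit pileup, local background and fold over background (vertical axes, from 0) at the starts of HBA1 and HBA2, with a line joining both genes in each of the 15 libraries. The summits lie at 85 to 232 fragments for HBA1 and 67 to 245 for HBA2, the background is higher and the fold lower at HBA1 in all 15 libraries.

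HBA1 had the highest background of the 19 sites in 15 of 15 libraries, 2.17 ± 0.263 times that of the median site (SD, n = 15). HBA2 stood at 1.70 ± 0.277 times, HBQ1 at 1.67 ± 0.150 times, MPG at 1.43 ± 0.167 times, the site 28.7 kb downstream of the HBZ start at 1.41 ± 0.103 times and RHBDF1 at 1.26 ± 0.124 times (SD, n = 15 each). HBZ stood at 0.904 ± 0.0605 times, HS-40 at 0.970 ± 0.0404 times and MCS-R1 at 0.696 ± 0.0490 times. The lowest background in all 15 libraries was at the site 45.6 kb upstream (157014 to 157370).

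Neither alpha gene start passed a test between conditions. The pooled difference in normalised log2 pileup was 0.18 at HBA2 (95% interval −0.07 to 0.42) and 0.13 at HBA1 (−0.11 to 0.36). In rank it was 3.001 points at HBA2 (−7.56 to 13.6) and 3.42 points at HBA1 (−10.7 to 17.5). dCas9-KRAB differed from dCas9 with CR4 by 0.21 at HBA2 and 0.22 at HBA1 (SE 0.18 each), with a limma adjusted p of 1.00. The pooled values moved with single libraries, from 0.097 to 0.250 at HBA2 and from 0.035 to 0.212 at HBA1 when 1 was left out. The highest value of each came without replicate 1 of the no-gRNA group, where the unadjusted limma p was 0.0287 at HBA2 and 0.0393 at HBA1 and the adjusted p 1.00.

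HBQ1 had a peak in all 15 deposited lists, but it was kept in 5 of the 15 lists of equal length. Its percentile was 0, 0.14 and 0 in dCas9-KRAB with CR4, 7.22, 4.07 and 0 in dCas9-KRAB with CR10, 0 in all 3 libraries of dCas9 with CR4, 14.9, 0 and 0 in dCas9 with CR10, and 0, 0 and 0.16 without a gRNA. Its summit was not small, at 70 to 119 fragments in the 6 HS2-directed dCas9-KRAB libraries and 55 to 159 in the other 9. The pooled difference in normalised log2 pileup was 0.060 (95% interval −0.13 to 0.25).

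By mean percentile the 19 sites fell into an order in which few neighbours stood apart. The site 55.7 kb upstream of the HBZ start (146869 to 147325) came first at 95.5, followed by the shared start of POLR3K, an RNA polymerase III subunit gene, and SNRNP25, a gene of the minor spliceosome, at 94.6, and by HS-40 at 90.5. The site 12.1 kb downstream followed at 71.6, then MCS-R3 at 70.2, MPG at 69.1, NPRL3 at 68.3, MCS-R4 at 63.2, the site 87.0 kb upstream at 62.1 and MCS-R1 at 58.8. The lower part held the site 1.4 kb downstream at 54.0, HBA2 at 48.1, the site 45.6 kb upstream at 41.9, the site 28.7 kb downstream at 36.6, HBZ at 25.5, HBA1 at 23.7, RHBDF1 at 13.9, HS-8 at 13.2 and HBQ1 at 1.77. Of the 18 gaps between neighbours, 3 were larger than the SD of the difference within libraries: POLR3K and SNRNP25 over HS-40, HS-40 over the site 12.1 kb downstream, and HS-8 over HBQ1. By normalised log2 pileup, HBA1 and HBA2 stood higher in the order, at places 5 and 6 with 1.08 and 1.07.

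Over the whole interval, limma called 0 of 19 sites at an adjusted p of 0.05 in each of 10 tests on either measure, against a background of 0% of all regions in each. The tests were the 4 comparisons with no gRNA, KRAB fused against not fused under CR4 and under CR10, the contrast of both gRNAs within dCas9-KRAB, the pooled comparison, the interaction of KRAB with the gRNA, and the F test over the 5 groups. At an unadjusted p under 0.05 the count was 0 of 19 in every test by rank and 0 of 19 in 9 of the 10 on the pileup. By rank, the share of all regions at that level was 2.43%, 2.81%, 1.39% and 2.97% for dCas9-KRAB with CR4, dCas9-KRAB with CR10, dCas9 with CR4 and dCas9 with CR10 against no gRNA. It was 1.25% and 2.5% for KRAB fused against not fused under CR4 and under CR10, 2.65% for the contrast of both gRNAs, 1.72% for the pooled comparison, 2.18% for the interaction and 1.44% for the F test. On the pileup the shares in the same order were 0.723%, 0.841%, 0.311% and 1.09%, then 0.211% and 1.3%, then 0.717%, 0.769%, 0.627% and 0.165%. The sites' counts of 0 or 1 in 19 are too coarse to be set against shares this small.

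All 19 sites had a pooled difference above 0 in normalised log2 pileup, with a median of 0.068, while 51.8% of all 38888 regions did, with a median of 0.0036. By rank 14 of 19 did, against 51.5% of all regions, and in the deposited lists of unequal length 11 of 23 sites did, against 36.1%. By rank, dCas9-KRAB lay above dCas9 at 9 of 19 sites with CR4, against 49.98% of all regions. With CR10 it did at 16 of 19, against 51.3%. On the normalised log2 pileup it did at 16 of 19 with CR4, against 50.9%, and at 18 of 19 with CR10, against 51.16%. With the deposited fold in place of the pileup these counts were 8 with CR4 and 16 with CR10, and without centring 8 and 6. The sites share libraries and a chromosome, so they are not independent. Without centring, which lowered the median of all regions to −0.075, the pooled count on the pileup was 8 of 19 sites against 18.1% of regions. With the deposited fold in place of the pileup it was 12 of 19 against 53.2%, and centred on all peaks 15 of 19 against 29.7%. Leaving out 1 library each, it ran from 15 to 19 of 19, against 48.4% to 56.7% of regions. What moved the sites together on the pileup was not tested.

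**Figure D5:**
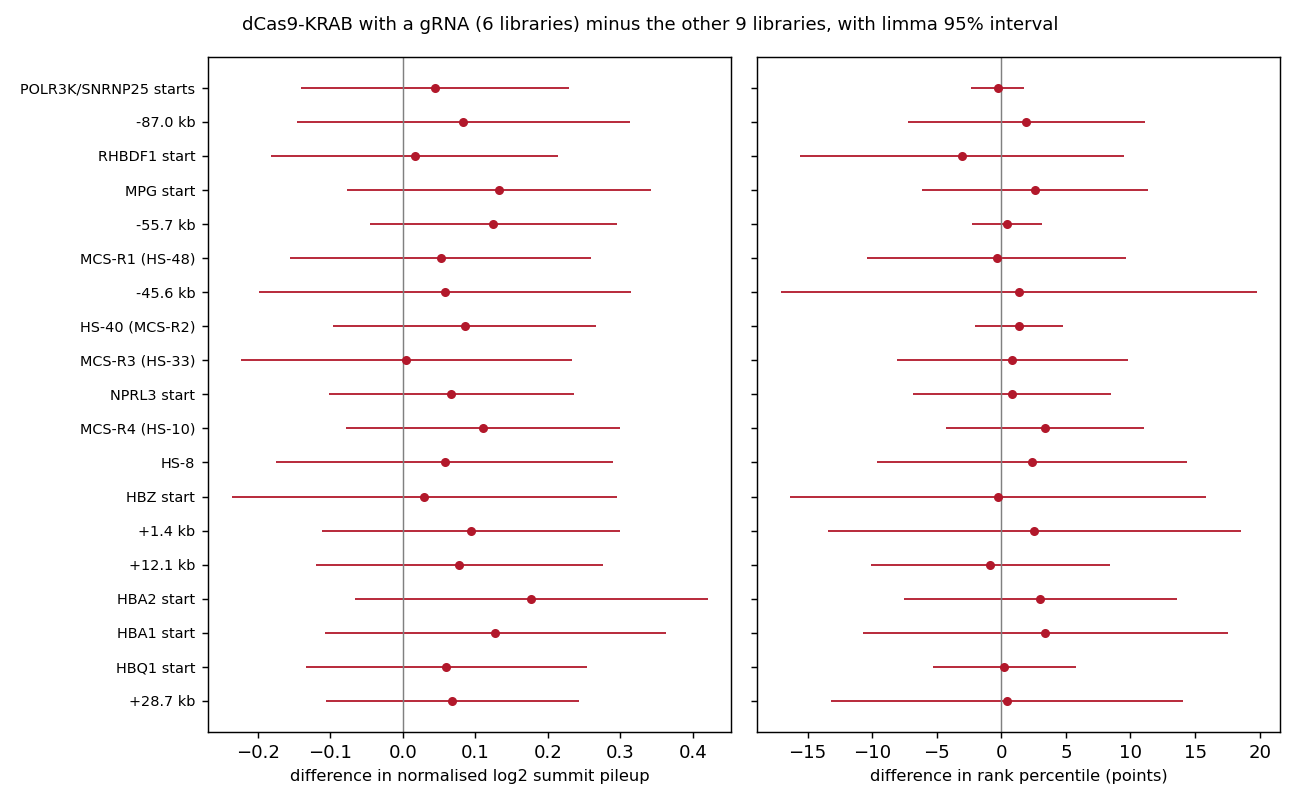
Difference between the 6 HS2-directed dCas9-KRAB libraries and the other 9 at each of the 19 sites, ordered along the chromosome from top to bottom, in normalised log2 pileup (left) and rank percentile points (right). Bars are the 95% intervals of the limma fit, and every interval includes 0.

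Across libraries the height of HS-40 went most closely with that of 3 regions outside the interval. Pearson's r of the normalised log2 pileup over 15 libraries was 0.947 for a region on chromosome 11 (67120829 to 67121479), 0.945 for one on chromosome 19 (14647631 to 14648555) and 0.931 for another on chromosome 11 (62366611 to 62367008). These are the highest of 38888 regions and are given as a description, since the libraries share depth and preparation. Within the interval r was highest for the site 1.4 kb downstream, at 0.784, and for the site 12.1 kb downstream, at 0.762. It was 0.6255 for HBA1, 0.624 for HBA2 and 0.055 for HBZ.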

How the data were processed

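Peaks were deposited as 15 lists in narrowPeak layout. Reads were processed with CASAVA 1.3 and BWA on hg19, with bedtools, per the submitters' processing notes; the sources used here do not give the peak caller or its threshold. The fold column, a ratio of summit to background, is the authors' value, and the deposited p-value and q-value columns hold −log10 values. The deposited score column was not used as a measure.

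Autosomal and X peaks were ranked by fold in lists of 53098, which kept 56.1% to 100% of a list, and overlapping peaks (1 bp) were merged. A site's position spans the merged peaks of all lists. Rank tests used the 62858 regions found in 3 or more libraries. Summit pileup and background were solved from fold and p, with p taken as a Poisson tail and fold as a ratio with 1 added to each side. A whole number met both within 0.01 in −log10 p for 100% of peaks. Log2 used a pseudocount of 1. Limma 3.58.1 (R 4.3.3) fitted all 15 libraries and 5 groups with a trend and Benjamini-Hochberg adjustment over all regions, and was tested on simulated data. Permutation and Fisher tests ran under Python 3.11.15 with scipy 1.17.1.

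Every site was accounted for. Values per library are given for HS-40, MCS-R3 and the starts of the member genes. The same rule held for any site past an unadjusted p of 0.05 in the pooled or F test. MCS-R1, MCS-R4 and HS-8 are given as ranges over the HS2-directed dCas9-KRAB libraries and over the others. The members and lists were chosen with earlier results of these data known. Alternatives covered list length, ranking by p, scale, filters, overlap, centring, limma settings, a q-value minimum, a replicate block and leaving out each library. The replicate number was a block only in an alternative, and the correlation of same-numbered libraries is described there. One marker window is not reported here.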

Additional observations from a re-analysis of the deposited data

Results flagged for a closer look

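Of 76 sets of values tested, 3 held 1 library far from the rest, where chance flags about 1 in 20. All 3 were among the 9 libraries other than dCas9-KRAB with a gRNA. MCS-R4 had a rank percentile of 47.32 in dCas9 with CR4 replicate 1, against 59.73 to 69.03 in the other 8. HBQ1 had a percentile of 14.91 in dCas9 with CR10 replicate 1, against 0 to 0.16 in the other 8. That library has the shortest list, which was kept at 100% while all others were cut. In the uncut lists HBQ1 had a percentile of 14.91 there and 4.34 to 37.93 in the other 8, so the flag comes with the cut. MCS-R1 had a normalised log2 pileup of −0.244 in the same library, against −0.019 to 0.153 in the other 8.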

How the results depend on the processing

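The count of called sites was 0 of those tested under every alternative on both measures and in every comparison, with limma in each case. At an unadjusted limma p under 0.05, alternatives gave 30 results at 9 sites over all comparisons, 23 of them with 1 library left out. Each of the 10 tests covered 18 to 23 sites under 27 settings by rank and 25 on the pileup, the main one included. The site 1.4 kb downstream of the HBZ start gave more of these results than any other, nearly all in dCas9 with CR10 against no gRNA. In the main fits 0.165% to 2.97% of all regions passed this level, and the shares under the alternatives are not given here. Presence passed Fisher's exact test at 0 sites, a count that 5 of the 8 sites could not have changed. Leaving out 1 library each, the HS-40 pileup difference ran from 0.0575 to 0.145 and its rank difference from 0.730 to 2.13, and HS-40 less HS2 from 15.4 to 28.8 in rank and from 0.661 to 0.873 on the pileup. Without centring the HS-40 pileup difference was 0.0063 (exact permutation p = 0.975).

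Signs of small pooled pileup differences turned at some sites, all with a limma adjusted p of 1.00. Other centring shifts all regions alike, to a median of −0.075 without centring and −0.045 centred on all peaks, and the turns under those settings come from that shift. For the fold and for libraries left out the cause was not tested. Without centring the difference was −0.0266 at MCS-R1, −0.0743 at MCS-R3, −0.0124 at NPRL3, −0.0213 at HS-8, −0.0491 at HBZ and −0.0189 at HBQ1. Centred on all peaks it was −0.0438 at MCS-R3 and −0.0185 at HBZ, and with fold in place of pileup −0.0027 at MCS-R1, −0.0103 at HBZ and −0.0122 at HBQ1. Without 1 library each it ran from −0.0184 to 0.117 at MCS-R1, −0.0871 to 0.119 at MCS-R3, −0.0092 to 0.121 at NPRL3, −0.0603 to 0.105 at HBZ and −0.0029 to 0.130 at HBQ1. The log2 ratio of HBA1 to HBA2 summits ran from −0.0221 to 0.0118, and that of their backgrounds from 0.352 to 0.367.

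With the replicate number as a block, limma called 0 of 19 sites in each test, and the HS-40 pileup difference of 0.085 had an SE of 0.084. Permutation within replicate numbers gave p = 0.304 at HS-40 on the pileup and 0.404 by rank. The main tests did not use the replicate number. Deviations from the group mean had a correlation over 0.1 in 19 of 30 same-numbered pairs on the pileup and in 13 of 30 by rank. Their median r was 0.135 on the pileup and 0.0735 by rank, against −0.125 and −0.105 for pairs differing in number and group. Deviations within a group sum to 0, which ties both kinds of pairs together, so the negative medians are no separate evidence. By rank r of same-numbered pairs ran from −0.193 to 0.416. On the pileup 10 of 15 libraries correlated best with their own number, and by rank 8 did. Same-numbered libraries thus tended to deviate together on the pileup, and more weakly by rank, which the main tests leave out.

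Pileups of 31 to 245 fragments at the enhancer elements and globin gene starts and 3 libraries per group limit the precision.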
